A study of Drosophila melanogaster with 3 samples.

Results

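The JAK-STAT genes examined here were upd1, upd2, upd3, dome, hop, Stat92E and Socs36E, 7 of 13968 protein-coding genes, and they were taken by symbol. A summit, the position of highest enrichment within a peak, was counted for a gene if it lay in the gene model or within 10 kb of either end on dm6. This gave 24 of the 5049 summits of the deposited optimal IDR list, where IDR stands for the irreproducible discovery rate, a measure of how well peak ranks agree between replicates. It gave 93 of the 30000 summits of the list made from the pooled replicates, and 94, 86 and 91 of the 30000 in replicates 1, 2 and 3. No windows overlapped, so each summit counts for 1 gene only.

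The peaks are those of the Drosophila melanogaster protein Mabi (mabiki, CG15479), which has been linked to the death of embryonic cells, mapped by chromatin immunoprecipitation and sequencing. The 3 biological replicates were whole embryos of pooled males and females aged 0 to 4 h from 1 transgenic line, in which Mabi carries GFP at its C-terminus. An anti-GFP antibody was used, while the antibody label names CG15479. The labels describe an insertion targeting Mabi and name no promoter for the fusion and no second condition. The replicate lists were called against 1 shared control file, the depth of sequencing is unknown here, and the samples are mixtures of all cells and stages in the collection. All values are therefore descriptions, with the spread over 3 replicates where one exists. Nothing in these lists measures expression.

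In flies the JAK-STAT pathway runs through few components. The secreted Unpaired ligands, encoded by the 3 upd genes, bind the receptor Domeless (dome), the kinase Hopscotch (hop) then phosphorylates the transcription factor Stat92E, and phosphorylated Stat92E enters the nucleus. Socs36E encodes a suppressor of cytokine signalling that is induced by Stat92E and dampens the pathway. In the early embryo the pathway is known for its part in pair-rule stripe expression and, through upd1, in the counting of X chromosomes at Sxl.

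Mabi summits were unevenly spread over the pathway. Stat92E and Socs36E, the transcription factor and the feedback inhibitor, held 16 of the 24 IDR summits in their windows and 14 of the 15 that lay inside a pathway gene. Those 2 genes had the only IDR promoter peaks, with a promoter peak meaning a summit within 1000 bp of an annotated transcription start site (TSS). They made up 2 of 7 genes (28.6%), against 18.4% of all protein-coding genes. An IDR summit lay in or within 10 kb of 6 of the 7, against 53.9% of protein-coding genes, and inside the gene for 3 of the 7, against 13.1%. With pooled summits of any rank, a promoter summit was listed for 5 of the 7, all but upd3 and hop, against 56.6%. The pathway genes are longer than most, with a median length of 7364 bp against 2164.5 bp for protein-coding genes, so counts per gene are also given per length. Per 10 kb of window the 7 genes had a median of 1.10 IDR summits, against 0.356 for protein-coding genes. That median is the value of hop, where only 1 of the 3 IDR summits was nearest the gene's own TSS. Of the 24 summits, 17 had a TSS of the pathway gene as their nearest protein-coding TSS and 7 were nearer to a neighbour's.

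**Figure D1:**
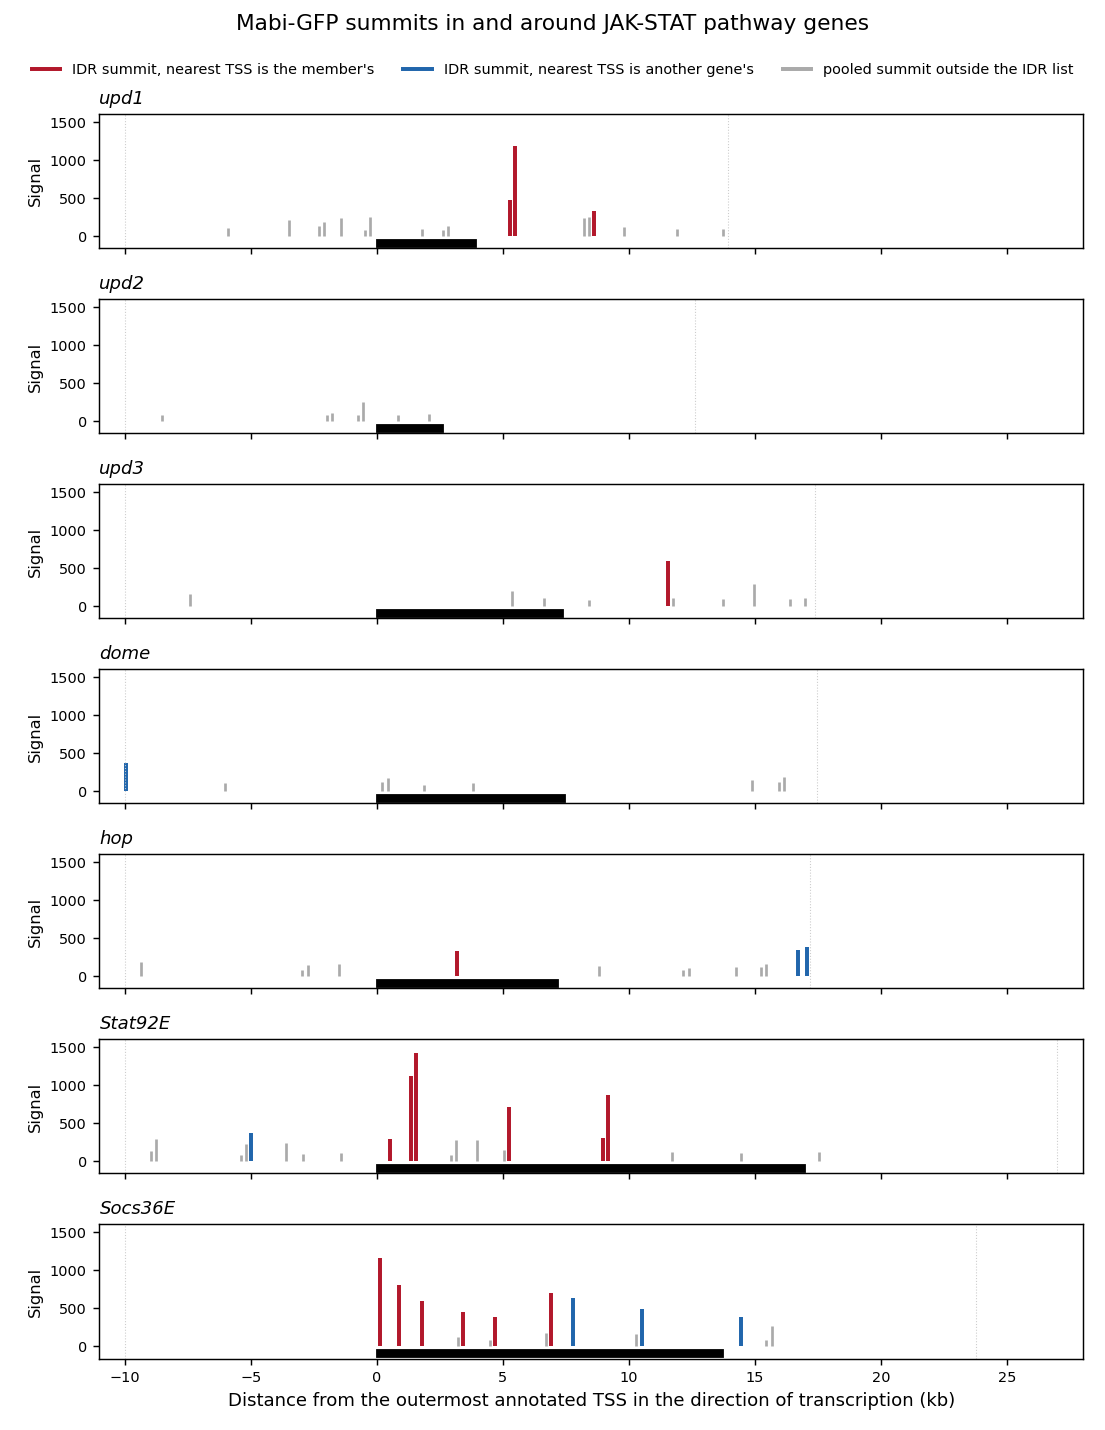
Deposited signal of every IDR and pooled summit (vertical lines) in the 7 windows against distance from the outermost TSS in the direction of transcription, in kb. Black bars are gene bodies and dotted lines the window edges. IDR summits are spread through the 5' part of Stat92E and most of Socs36E, lie beyond the 3' ends of upd1 and upd3, and are absent at upd2.

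Among the ligand genes, upd1 had a strong site downstream of its 3' end. The gene occupies 18305354 to 18309291 on the minus strand of X. Its strongest summit, beyond the 3' end in intergenic sequence, had a signal of 1191 and ranked 440 of 5049. In replicates 1, 2 and 3 it reached 5.00, 8.51 and 8.88 times the median signal of the replicate's list (7.46 ± 2.14, SD, n = 3), lowest in replicate 1. The same interval held a second IDR summit at 18304002 with a signal of 479, and a weaker one lay at 18300671 with a signal of 332. A summit was called matched in a replicate if its peak and one of that replicate's 5049 strongest, referred to as strong peaks, overlapped by at least 50% of either. The first 2 summits were matched in each of the 3 replicates. The summit at 18300671 was matched in replicates 2 and 3 only. At the upd1 promoter the strongest pooled summit lay 252 bp upstream of a TSS with a signal of 251. It ranked 6160 of 30000 and so fell below the IDR list, whose lowest signal was 291.

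The summit at 18304002 is shown because it held the only CAGGTAG, the consensus of the early embryonic activator Zelda, found at the 24 IDR summits. The letters are those of the plus strand of dm6 in the RefSeq copy of the genome, as for all sequences here, each full window reaches 100 bp to either side of the summit, and capitals mark the match.
upd1 site at chrX:18303902-18304102: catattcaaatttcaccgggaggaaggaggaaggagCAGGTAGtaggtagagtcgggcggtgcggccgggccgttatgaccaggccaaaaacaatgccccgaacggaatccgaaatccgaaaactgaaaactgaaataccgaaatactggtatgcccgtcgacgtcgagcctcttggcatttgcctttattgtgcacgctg

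The other ligand genes had less than upd1, though upd3, at 0.365 IDR summits per 10 kb of window, was near the protein-coding median of 0.356. For upd3, at 18277233 to 18284596 on the plus strand of X, the 1 IDR summit lay at 18288787, 4191 bp beyond the 3' end, with a signal of 598 and rank 1699. It reached 3.44, 3.87 and 4.27 times the list median in replicates 1, 2 and 3 and was matched in all 3. It lies between upd3 and upd1, and its nearest protein-coding TSS is that of upd3, 11554 bp away. A second upd3 summit at 18292195 had a signal of 291.1 and ranked 5052, just below the IDR list. No promoter summit of upd3 was listed in the pooled list or in any replicate.

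The upd3 site is shown for the run of GAGAG, the core recognised by GAGA-type factors, that lies at the summit. Capitals mark every GAGAG on either strand, of which there are 9 when overlapping matches are counted, 8 of them within 20 bp of the summit.
upd3 site at chrX:18288687-18288887: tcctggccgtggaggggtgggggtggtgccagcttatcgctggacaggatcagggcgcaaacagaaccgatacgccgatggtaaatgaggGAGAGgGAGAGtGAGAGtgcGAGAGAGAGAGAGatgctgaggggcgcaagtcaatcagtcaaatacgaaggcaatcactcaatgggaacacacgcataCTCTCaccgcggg

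The third ligand gene, upd2, at 18240654 to 18243284 on X, had no IDR summit, the only one of the 7 without. Its strongest pooled summit lay 546 bp upstream of the TSS with a signal of 256 and rank 6007. A promoter summit was listed in replicates 1, 2 and 3 at 1.73, 1.80 and 1.54 times the list median. These were the highest values in the upd2 window, and no summit there was among the 5049 strongest of any replicate. No IDR summit lay inside any of the 3 ligand genes.

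The receptor gene dome and the kinase gene hop had few summits of their own next to Stat92E and Socs36E. Per 10 kb of window dome had 0.364 IDR summits and hop 1.10, against a median of 0.356 over protein-coding genes. These densities include summits nearer to a neighbour's TSS. The number nearest the gene's own TSS was 0 for dome and 1 for hop. The dome gene, at 19676061 to 19683518 on X, had 1 IDR summit in its window. It lay 9952 bp upstream, near the edge of the window, and 30 bp downstream of a TSS of Mer, which encodes the tumour suppressor Merlin. The strongest pooled summit at dome's own promoter lay 434 bp downstream of the TSS with a signal of 177 and rank 9861, and the promoter reached 1.76, 1.24 and 2.07 times the list median in replicates 1, 2 and 3. The receptor-like gene et, a negative regulator of the pathway that lies next to dome, had no IDR summit within 10 kb. Neither receptor gene thus had an IDR summit at its own promoter.

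For hop, at 11360930 to 11368098 on X, 3 IDR summits lay in the window, and 2 of them belonged by distance to CG1737, at 431 and 785 bp from its TSS. The remaining summit, at 11364925, lay in an intron of hop 3173 bp downstream of the TSS, with a signal of 333 and rank 4226. It reached 2.37, 2.10 and 2.26 times the list median in replicates 1, 2 and 3 (2.24 ± 0.14, SD, n = 3), a narrow spread. It was matched in replicates 1 and 2, and in replicate 3 its nearest summit ranked 5150, just outside the 5049 strongest. The window around it, wholly intronic, is shown as the only site within an X-linked pathway gene. It held no match to any motif searched.
hop intronic site at chrX:11364825-11365025: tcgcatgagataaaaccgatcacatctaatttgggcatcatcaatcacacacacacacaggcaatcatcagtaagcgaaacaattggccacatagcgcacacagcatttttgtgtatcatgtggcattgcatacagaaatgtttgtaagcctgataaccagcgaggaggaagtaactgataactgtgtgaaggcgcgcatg

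Stat92E, the transcription factor gene, had the strongest peak of the pathway. It occupies 20535323 to 20552311 on the minus strand of 3R and has 11 annotated transcripts with 2 distinct TSSs. Its strongest summit, at 20550752, lay in 5' UTR sequence 355 bp downstream of the inner TSS, with a signal of 1427 and rank 288 of 5049. It reached 7.91, 8.89 and 11.3 times the list median in replicates 1, 2 and 3 (9.36 ± 1.74, SD, n = 3), lowest in replicate 1 and highest in replicate 3. The same interval held a summit at 20550959, 148 bp from that TSS, with a signal of 1119 and rank 514. A weak IDR summit at 20551779, 532 bp downstream of the outer TSS, had a signal of 299 and was matched in replicate 2 only. It reached 1.38, 2.88 and 1.18 times the list median in replicates 1, 2 and 3, below the inner summits in each.

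Introns of Stat92E held 4 of its 6 internal IDR summits. The intron from 20542093 to 20550720 held 3, with signals of 865 at 20543127, 717 at 20547083 and 300 at 20543333. The summit at 20547083 reached 4.62, 4.38 and 5.46 times the list median in replicates 1, 2 and 3. In replicates 1 and 2 a single listed summit was nearest to both 20543127 and 20543333, while replicate 3 listed one close to each, at 7.44 and 4.17 times the median. The seventh IDR summit of the window lay in DPCoAC, a mitochondrial carrier gene, 361 bp from its TSS. Of protein-coding genes, 0.694% held 6 or more IDR summits inside the gene, and 3.34% held as many per kb of gene.

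The strongest intronic site of Stat92E is shown in place of the summit in its 5' UTR. Capitals mark TAATCC, the consensus of Bicoid, and GAGAG, here on the minus strand as CTCTC.
Stat92E intronic site at chr3R:20543027-20543227: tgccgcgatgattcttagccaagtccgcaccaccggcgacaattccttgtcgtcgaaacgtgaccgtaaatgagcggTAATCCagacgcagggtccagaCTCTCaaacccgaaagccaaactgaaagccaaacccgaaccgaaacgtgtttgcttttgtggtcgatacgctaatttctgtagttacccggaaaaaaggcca

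Socs36E, the feedback inhibitor gene, had the most summits. The gene occupies 18138675 to 18152417 on the minus strand of 2L. It held 8 IDR summits inside the gene and 9 in its window, numbers reached by 0.336% and 0.888% of protein-coding genes. Per kb of gene, 1.45% of protein-coding genes held as many. The strongest, at 18152296 in the 5' UTR 121 bp downstream of the TSS, had a signal of 1162 and rank 467. It reached 7.84, 7.57 and 7.81 times the list median in replicates 1, 2 and 3 (7.74 ± 0.15, SD, n = 3), the narrowest spread of the 3 strongest pathway peaks.

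The first intron, 9459 bp from 18142581 to 18152039, held 6 of the 8. From the 5' end their signals were 811, 596, 447, 384, 702 and 640, at 872, 1788, 3412, 4704, 6923 and 7784 bp from the TSS. They ranked between 984 and 3440 of 5049, the highest being the one nearest the TSS. The eighth summit, at 18141913 in a coding exon, had a signal of 485. Gaps between neighbouring summits in the gene ran from 751 to 2720 bp, with a median of 1292 bp. The summits at 18144633 and 18141913 were nearer to the TSS of the next gene, kel, which encodes the ring canal protein Kelch, than to that of Socs36E. The ninth summit, with a signal of 379, lay 109 bp downstream of that kel TSS. All but 1 of the 9 were matched in each of the 3 replicates. The exception was the summit at 18147713, whose nearest summit in replicate 2 ranked 5717.

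**Figure D2:**
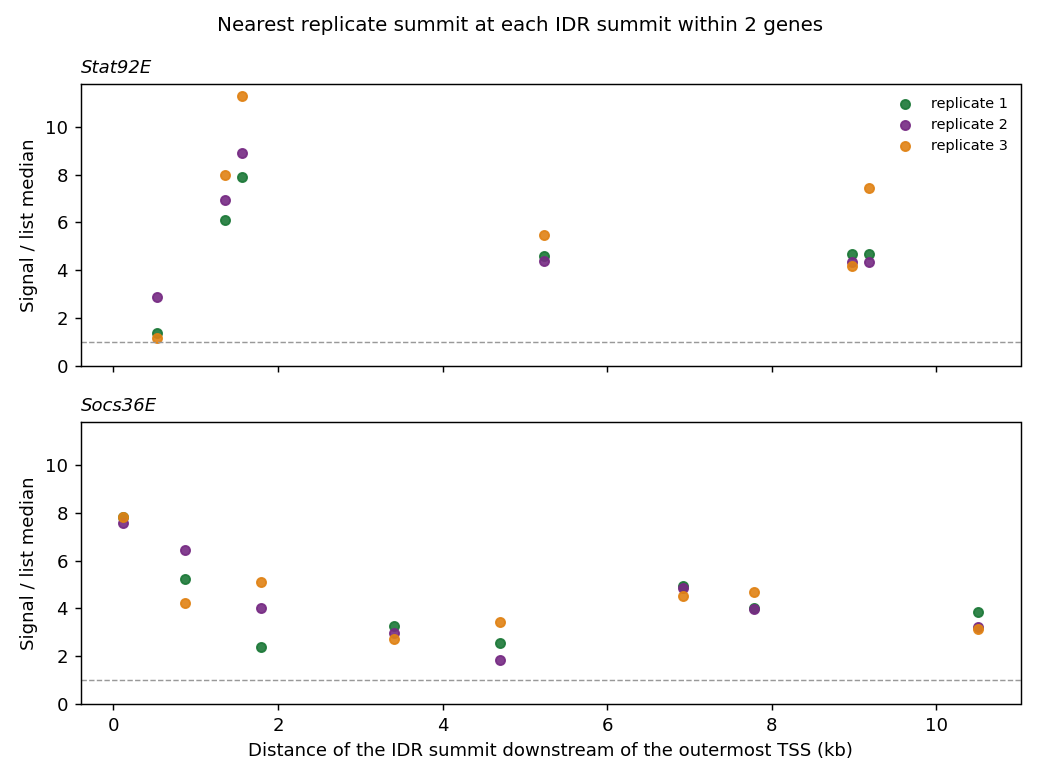
Signal of the replicate summit nearest to each IDR summit inside Stat92E and Socs36E, divided by the median of that replicate's list (dashed line at 1), against distance from the outermost TSS in kb. At Stat92E the 2 summits near the inner TSS stand above the others in all 3 replicates, and at Socs36E the summit nearest the TSS is the highest in each replicate.

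Within 100 bp of a Mabi summit, matches to the Stat92E consensus were found at Socs36E and at no other pathway gene, while within 250 bp they were also found at upd1 and Stat92E. Stat92E recognises TTC and GAA with a gap of 3 or 4 bases, that is TTCNNNGAA or the same with 1 more N, and both patterns read the same on either strand. Windows reaching 100 bp to either side of the 24 IDR summits held one or the other in 5 cases (20.8%), against 9.45% of the windows around all 5049 IDR summits and 12.2% of windows around annotated protein-coding TSSs. All 5 were at Socs36E summits, and held 6 matches in all. With 250 bp to either side, 12 of the 24 windows held a match, against 24.6% of all IDR windows, and these were all 9 at Socs36E, 2 of 3 at upd1 and 1 of 7 at Stat92E. These are short patterns, and a match is not a bound site. The whole Socs36E window, gene and flanks, held 47 matches, or 13.9 per 10 kb, a density reached by 0.215% of protein-coding genes. The first intron alone held 27. Of the 47, 12.8% lay within 100 bp of an IDR summit, and such positions made up 5.36% of the window. Most of both lay inside the gene, 35 of the 47 matches and 8 of the 9 summits. The 2 shares therefore do not separate closeness to summits from placement in the gene. The dome window was also dense in matches, at 10.2 per 10 kb, and none lay within 100 bp of an IDR summit. The other 5 windows had 2.65 to 5.95 per 10 kb, below the 6.49 of the 7 chromosome arms together. The median over the 7 genes was 5.48 per 10 kb, against 6.24 over protein-coding genes.

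The 6 matches within 100 bp are shown as those nearest to the Mabi summits of the pathway genes. Capitals mark the whole match with its gap, and in the window at 18149005 both a gap of 3 and a gap of 4 occur without overlapping. GAGAG, on the minus strand, is also in capitals in the second window. The GAGAG that opens the short stretch at 18147795 is left in lower case.
Socs36E intron at chr2L:18148905-18149105: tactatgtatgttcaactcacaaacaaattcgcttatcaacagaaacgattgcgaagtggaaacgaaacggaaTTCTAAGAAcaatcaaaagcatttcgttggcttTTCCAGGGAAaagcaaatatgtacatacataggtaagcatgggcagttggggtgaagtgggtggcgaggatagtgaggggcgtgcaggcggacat
Socs36E intron at chr2L:18150529-18150729: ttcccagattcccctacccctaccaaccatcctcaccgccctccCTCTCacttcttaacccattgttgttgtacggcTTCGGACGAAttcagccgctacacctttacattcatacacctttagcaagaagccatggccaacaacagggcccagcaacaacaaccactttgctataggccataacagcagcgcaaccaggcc
Socs36E intron at chr2L:18144534-18144563: cctgaacgatTTCCGTGGAAttcccttgtg
Socs36E intron at chr2L:18147795-18147823: gagaggcgatTTCTTGGAAattcgcacac
Socs36E 5' UTR at chr2L:18152337-18152365: gaagtatcgcTTCCCCGAAaagtatctgt

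The other motifs, searched on both strands, occurred in at most 5 of the 24 windows. GAGAG occurred in 20.8% of the 24 windows, against 35.3% of all IDR windows and 25.0% of TSS windows. CAGGTAG occurred in 1 window (4.17%, against 5.94% and 1.08%), and TAATCC in 3 (12.5%, against 6.34% and 6.11%). Neither TATCGATA, the DNA replication-related element, nor CACCTG, an E-box bound by Snail, occurred in any, against 2.08% and 6.63% of all IDR windows. With 250 bp to either side CACCTG occurred in 4 of the 24, against 16.2% of all IDR windows, and TATCGATA in none. The 24 windows had a median GC content of 46.8%, against 45.3% for all IDR windows.

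The strength of binding placed the 7 genes in an order that the replicates only partly resolved. Taken as the strongest summit in or within 10 kb over the list median, Stat92E came first (9.36 ± 1.74), then Socs36E (7.74 ± 0.15) and upd1 (7.46 ± 2.14). They were followed by upd3 (3.86 ± 0.41), hop (3.54 ± 0.55), dome (2.27 ± 0.64) and upd2 (1.69 ± 0.13, SD, n = 3 each). Stat92E exceeded Socs36E in each replicate, by little in replicate 1, and the upd1 values overlapped those of both. The values of upd3 and hop overlapped, as did those of hop and dome and those of dome and upd2, while every value of the upper 3 genes lay above every value of the lower 4. Promoter summits alone gave another order, with upd1 at 1.66 ± 0.62, near dome and upd2 at 1.69 each and with Stat92E and Socs36E as before. A hop promoter summit was listed in replicates 1 and 3 only, at 1.16 and 0.63, and a upd3 one in no replicate. For hop the strongest summit in the window was one of those at CG1737, and for dome in replicates 1 and 3 it was that at Mer. The median over the 7 genes was 3.63, 3.87 and 4.27 in replicates 1, 2 and 3, against 2.06, 2.28 and 2.50 over all protein-coding genes. These maxima are not scaled by length, and the 7 genes are longer, with a median of 7364 bp against 2164.5 bp. In replicate 1 the median was the hop value, from a summit at CG1737.

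**Figure D3:**
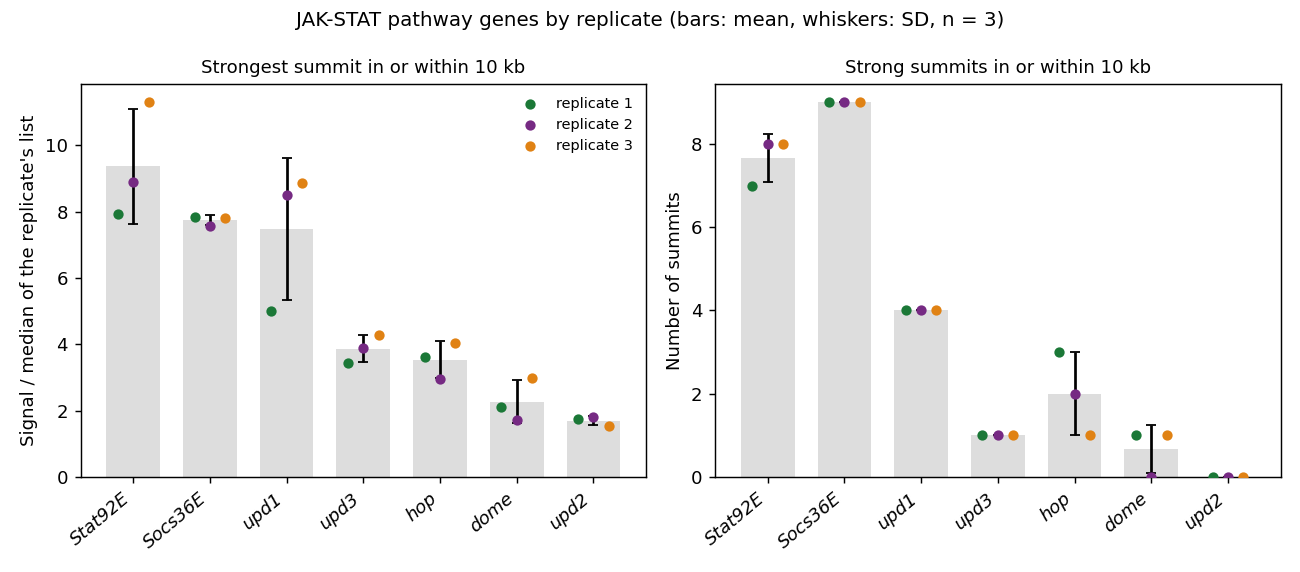
Left, the strongest summit in or within 10 kb of each gene over the median of the replicate's list. Right, the number of summits there among the 5049 strongest of each replicate. Points are replicates, bars means and whiskers SD (n = 3). Stat92E, Socs36E and upd1 lie above the other genes in every replicate, and Socs36E has 9 strong summits in each.

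The number of strong summits was steady between replicates. Among the 5049 strongest peaks of each list, 25, 24 and 24 summits lay in the 7 windows in replicates 1, 2 and 3 (24.3 ± 0.58, SD, n = 3). Socs36E had 9 in each replicate, Stat92E had 7, 8 and 8, and upd1 had 4 in each. Equal counts did not mean the same sites. At upd1 the replicate summits nearest 18303801 and 18304002 were strong in every replicate. The one nearest 18300671 ranked 10828 in replicate 1, and 3878 and 3019 in replicates 2 and 3. At Socs36E the one nearest 18147713 ranked 5717 in replicate 2. The window of the kinase gene hop varied most, with 3, 2 and 1, and that of dome had 1, 0 and 1. These counts include summits of neighbours. Of the 3 IDR summits in the hop window 2 were nearest a TSS of CG1737, and the 1 in the dome window was nearest that of Mer. In replicate 2 the summit nearest the one at Mer ranked 4509 but lay 222 bp further out, beyond the window. Of the 24 IDR summits, 17 (70.8%) were matched in each of the 3 replicates, against 71.2% of all IDR summits, 6 in 2 replicates and 1 in 1. Matches were by overlap of peaks, so summits sharing an interval were matched together. Every one of the 24 had a summit in each complete replicate list within 250 bp, at a median distance of 12.5 bp and at most 222 bp. One replicate summit could be nearest to more than 1 IDR summit, as at Stat92E. The share over all IDR summits is not given here. The IDR list was itself made from these lists, so the agreement is no independent test.

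**Figure D4:**
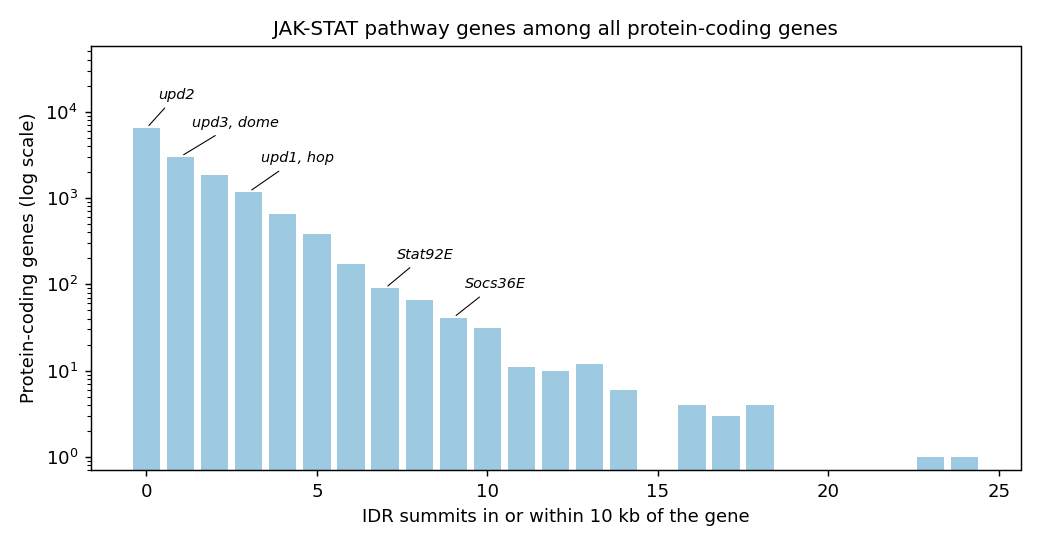
Number of protein-coding genes (log scale) with each count of IDR summits in or within 10 kb, with the 7 pathway genes named. Most genes have few, and Stat92E with 7 and Socs36E with 9 lie in the thin upper part, below a maximum of 24.

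The 5 X-linked genes and the 2 autosomal ones differed in density. The X-linked windows held 8 IDR summits, or 0.622 per 10 kb, and those of Stat92E and Socs36E held 16, or 2.26 per 10 kb. Over the complete chromosomes the X had 0.340 per 10 kb, 3R had 0.387 and 2L had 0.396. Chromosome and gene cannot be told apart with these members.

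Outside the core, promoter peaks were found at part of a wider list of 26 pathway genes, which was sorted by role. Of 10 regulators 3 had an IDR promoter peak, of 11 embryonic and tissue targets 6 had one, and of 5 stress and immune targets 0 had one. The total of 9 of 26 stands against 18.4% of protein-coding genes. The regulator Socs16D, a SOCS-family gene on X, had a signal of 1620 and rank 195, above every core gene. Its promoter reached 10.1, 9.87 and 12.5 times the list median in replicates 1, 2 and 3. E(bx), a subunit of the nucleosome remodelling factor NURF, had 726, and Ptp61F, a phosphatase that acts on Hop and Stat92E, had 443. The sister gene Socs44A, also of the SOCS family, had no IDR promoter peak. Nor did the endosomal sorting genes Stam and Hrs, et, BRWD3, ken, which encodes a repressor of some Stat92E targets, or Su(var)2-10, which encodes a PIAS-type SUMO ligase.

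Among embryonic targets the pair-rule genes run and ftz had signals of 1417 and 1060. Sxl, the sex determination switch that upd1 helps to activate in females, had 791. The tracheal regulator trh had 708, the repressor gene zfh1 369 and the polarity gene crb 346. The pair-rule gene eve, a known stripe target of Stat92E, had none within 1000 bp of its TSS but had 4 IDR summits within 10 kb, as did kni. Neither chinmo, slbo nor vvl had an IDR promoter peak. The stress and immune genes TotA, TotM, vir-1, Tep1 and Tep2, which are induced in larvae and adults by injury or infection, had no IDR summit within 10 kb either. Among these 5 genes TotM had the only pooled promoter summit, with a signal of 93.8.

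**Figure D5:**
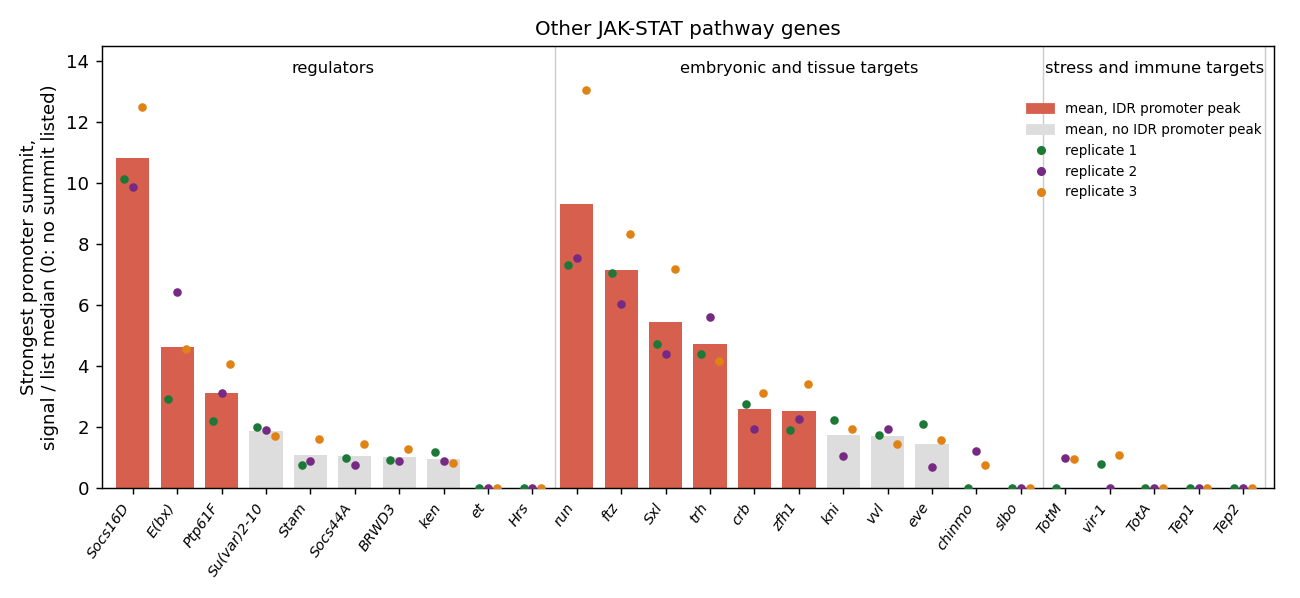
Strongest promoter summit over the list median in each replicate (points) for 26 other pathway genes by role, with 0 where no promoter summit was listed. Bars are means where all 3 replicates listed one, red for genes with an IDR promoter peak. Socs16D and run are the highest, and no value of a stress or immune gene is above 1.08.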

How the data were processed

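The 3 biological replicates formed 1 group, Mabi-GFP embryos, and no groups were compared. Peaks were called by the authors per replicate and on the pool against a shared control, and the IDR list was derived from those lists, per the text files deposited with the samples. The deposited lists give for each peak a signal, with no scale stated, and a −log10 q value, which was 4.16 for every IDR peak. Which caller and aligner were used is not given in the sources used. Fragment sizes were 200 to 800 bp, per the labels. The IDR list was identical to the 5049 strongest pooled peaks.

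Signal was compared only within a list or after division by that list's median. Ensembl release 115 supplied the gene models, and bases were read from RefSeq's Release 6 genome (dm6). Counting used Python 3.11.15 with numpy 2.4.6 and pandas 2.3.3, and the functions were tested on simulated peaks. The members, the wider gene list and the motifs were chosen with earlier results of these data known. The genes named were the members, the genes nearest their IDR summits, the wider list, and the 3 genes closest to the member with the highest promoter signal.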

Additional observations from a re-analysis of the deposited data

How the results depend on the processing

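Of the 7 core genes, 2 had an IDR promoter peak at a reach of 500 or 2000 bp, among the 2524 strongest IDR peaks, with RefSeq gene models and with any 1 replicate left out. With all pooled peaks this number was 5, and that for the 26 other pathway genes was 19 in place of 9, against 56.6% of protein-coding genes. For the other settings the share over protein-coding genes is not given here. For those 26, leaving out a replicate gave 7 to 8. The count of 24 IDR summits was 13 among those 2524. When a replicate was left out, the IDR list was not rebuilt. Of the 24 summits, 18 to 20 were then matched in each of the other 2 replicates. Per replicate, the mean of 24.3 strong summits was 13.7 with 2524 peaks taken per list, 90.3 with all of them and 21.3 within 5 kb. The median relative signal of 3.92 was 1.19 when divided by the median of the 5049 strongest peaks and 1.83 for promoter summits alone. For promoter summits alone upd1 had 1.66 in place of 7.46, below upd2 and dome. Windows with a Stat92E match numbered 5 of 24 (all IDR windows 9.45%), against 2 with 50 bp to either side (4.4%) and 12 with 250 bp (24.6%), of which 3 were at upd1 or Stat92E. CACCTG, in none of the 24, was in 4 with 250 bp. Leaving out a replicate gave 24.0 to 24.5 strong summits and a median relative signal of 3.75 to 4.07. The 18 to 20 matched summits given above stand in place of 17 matched in all 3 replicates, and are not a second result. With all 3 replicates kept, the 17 were 18 with an overlap of 1 bp and 14 with summits within 100 bp. They were 24 with all deposited replicate peaks. The shares over all IDR summits at these settings are not given here. The counts follow the number of peaks or bases taken. Precision is limited by 3 replicates of unknown depth. No paired analysis was possible because there is only 1 group.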

Other observations

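Of 6008 protein-coding genes with a promoter summit listed in every replicate, those whose relative promoter signal was most like that of Stat92E were Keap1, kuk and DCP2. Likeness was taken as the Euclidean distance of log2 relative signal over 3 replicates, and was 0.057 for Keap1 and kuk, which have the same values, and 0.091 for DCP2. The Keap1 and kuk promoters reached 7.83, 9.18 and 11.1 times the list median in replicates 1, 2 and 3, against 7.91, 8.89 and 11.3 for Stat92E. Keap1 encodes a sensor of oxidative stress, kuk a nuclear envelope protein needed at cellularisation, and DCP2 an mRNA decapping enzyme.

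Ptp61F and zfh1 had weak promoter peaks but many summits around them, 13 and 9 IDR summits in or within 10 kb, of which 8 and 5 lay inside the gene. Ptp61F is a long gene, from 1342493 to 1475257 on 3L, while zfh1 extends from 30765926 to 30789202 on 3R. The counts for these genes are not scaled by length, so they do not compare the density of summits.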
